A study of Mus musculus with 12 samples.

Results

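The 9 genes described here encode the heterochromatin protein 1 (HP1) family, its partner KAP1 and factors of DNA methylation. They are Cbx1, Cbx3, Cbx5, Trim28, Dnmt1, Dnmt3a, Dnmt3b, Dnmt3l and Uhrf1, taken by symbol from the 21523 protein-coding genes that RefSeq places on chromosomes 1 to 19 and X of the mouse build GRCm38. Each annotated gene body, from start to end, was intersected with 28210 H4K20me3 domains. H4K20me3 is trimethylation of histone H4 at lysine 20, a mark of heterochromatin, and a domain is a stretch that the authors called as carrying it. Of the 9 genes, 2 had a domain in the body and 7 had none.

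The mark was profiled by ChIP-seq in embryonic stem cells of the line dTKO, with the genotype Suv39h1fl/fl ; Suv39h2-/- ; Setdb1fl/fl in each sample. Cells received dTAG13 (0.5 μM) and auxin (100 μg/ml), ligands that trigger the destruction of proteins carrying a matching tag. They were collected in 4 groups of 3 replicates, treated for 0, 12, 24 and 48 h. The series asks how H4K20me3 decays after loss of the H3K9 methyltransferases. The data used here are 1 list of domain positions that names no sample and no time. Differences between times, the spread between replicates and library depth therefore have no value below, every comparison is a description of 1 list without a test, and the labelled cell type could not be checked against marker genes.

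HP1 proteins read trimethylated H3K9 through a chromodomain and bring further silencing enzymes, among them those that trimethylate H4K20. KAP1, the product of Trim28, is drawn to DNA by KRAB zinc finger proteins and recruits SETDB1 and HP1. DNMT3A and DNMT3B set new cytosine methylation at CpG dinucleotides, DNMT3L aids them without catalysing the reaction, and UHRF1 brings DNMT1 to replicated DNA to copy the pattern. In embryonic stem cells these systems act together on retroelements and imprinted regions.

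The promoters of the 2 genes with a domain are shown because they differ in CpG content and because the domains lie away from them, past the Cbx1 start site and between the first and second Dnmt3l start sites. Each sequence holds the 250 bases before a RefSeq start site and the base of that site. All are on GRCm38.p6, plus strand, 5′ to 3′, with CpG in capitals. Cbx1 has 1 listed start site, and Dnmt3l has 3. The Cbx1 start site, at 96789135, lies inside the annotated body, which begins at 96788680.
Cbx1 (chr11:96788885-96789135): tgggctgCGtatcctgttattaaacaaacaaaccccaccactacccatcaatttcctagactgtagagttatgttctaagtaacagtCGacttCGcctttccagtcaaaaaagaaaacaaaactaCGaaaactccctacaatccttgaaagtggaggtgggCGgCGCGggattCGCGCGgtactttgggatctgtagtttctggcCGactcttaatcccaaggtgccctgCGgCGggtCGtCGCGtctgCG
Dnmt3l, start site 1 (chr10:78042037-78042287): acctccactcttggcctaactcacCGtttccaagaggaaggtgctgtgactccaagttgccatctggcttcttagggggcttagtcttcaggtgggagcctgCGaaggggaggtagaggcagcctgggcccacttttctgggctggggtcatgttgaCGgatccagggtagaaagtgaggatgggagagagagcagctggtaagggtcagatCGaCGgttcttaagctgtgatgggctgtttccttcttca
Dnmt3l, start site 2 (chr10:78049592-78049842): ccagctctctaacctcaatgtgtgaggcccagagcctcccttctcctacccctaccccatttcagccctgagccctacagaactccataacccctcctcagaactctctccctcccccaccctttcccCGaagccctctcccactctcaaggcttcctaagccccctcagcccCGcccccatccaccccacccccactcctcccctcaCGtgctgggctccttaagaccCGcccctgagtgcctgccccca
Dnmt3l, start site 3 (chr10:78055085-78055335): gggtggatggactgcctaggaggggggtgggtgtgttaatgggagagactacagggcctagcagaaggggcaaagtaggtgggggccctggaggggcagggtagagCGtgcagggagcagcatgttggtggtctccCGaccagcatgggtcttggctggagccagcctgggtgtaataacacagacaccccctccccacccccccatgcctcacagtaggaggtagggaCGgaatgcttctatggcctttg
The Cbx1 stretch holds 17 CpG. The 3 Dnmt3l stretches hold 5, 4 and 3 CpG in the order of their start sites.

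Cbx1, the gene of HP1beta, lies on chromosome 11 (96788680 to 96808982, plus strand, 20.3 kb) and had 2 domains. The first, at 96800701 to 96801750, was 1.05 kb wide and spanned 59.2 to 64.4% of the way along the body. The second, at 96806551 to 96806850, was 0.300 kb wide and spanned 88.0 to 89.5%. Both thus lay in the downstream part of the gene, 11.6 and 17.4 kb past the start site, with 4.80 kb between them. Together they covered 1.35 kb, or 6.65% of the body. Gm11517, a transcribed pseudogene inside Cbx1, met neither domain and stood 2.54 kb from the first.

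Both Cbx1 domains were narrow members of the list, whose median width was 3.00 kb. Of all domains, 7.43% were narrower than 1.05 kb, and 0.454% were no wider than 0.300 kb. Another narrow domain, of 0.450 kb, stood 26.8 kb past the gene end, touched no annotated gene and lay beyond Nfe2l1, which had no domain. In the other direction the next domain was 925 kb upstream, over B4galnt2 and the noncoding gene 4833417C18Rik.

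Dnmt3l, the gene of the catalytically inactive DNMT3 cofactor, lies on chromosome 10 (78042287 to 78063622, plus strand, 21.3 kb) and had 1 domain. It ran from 78045451 to 78046500, was 1.05 kb wide and covered 4.92% of the body, between 14.8 and 19.8% of the way along. The domain stood between start sites 1 and 2, whose promoters are printed above: 3.16 kb past the first and 3.34 kb before the second. Start site 3 was 8.84 kb past the domain. Aire, the autoimmune regulator gene, overlaps the 5′ end of Dnmt3l, had no domain and stood 1.84 kb from this one. The next domains were 124 kb upstream, in Trpm2, and 435 kb downstream, at Olfr1358.

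**Figure D1:**
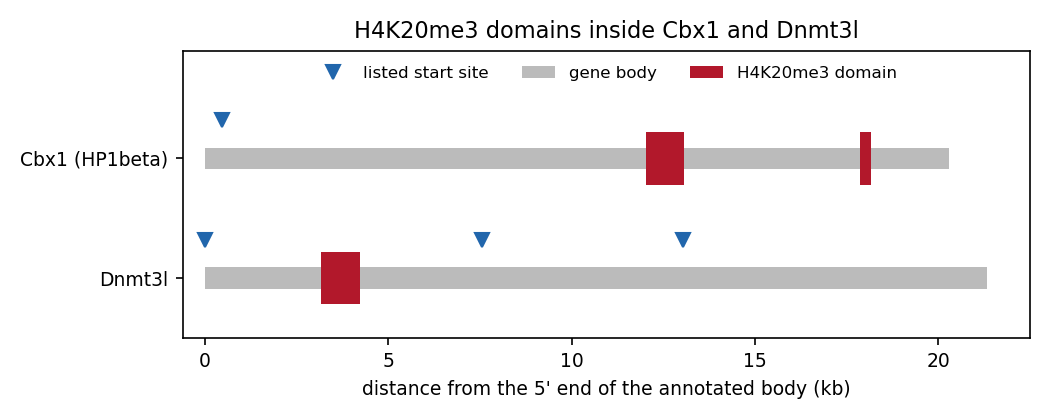
Gene bodies of Cbx1 and Dnmt3l (grey bars) with their H4K20me3 domains (red) and RefSeq start sites (triangles), against the distance in kb from the 5′ end of the body. The 2 Cbx1 domains lie in the downstream part of the gene, and the Dnmt3l domain lies between the first and second start site.

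The covered share of both genes was near the middle of protein-coding genes that meet a domain. Among 3044 such genes the median covered share was 4.29%, with quartiles of 2.01 and 11.5%, and 63.0% of them were covered less than Cbx1 and 54.5% less than Dnmt3l. In bases, both stood below the median of 3.45 kb. These 3044 genes were long, with a median of 80.4 kb against 17.4 kb for all protein-coding genes.

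The 2 other HP1 genes had no domain and stood far from any. Cbx3, the gene of HP1gamma, lies on chromosome 6 (51470154 to 51483704, plus strand, 13.6 kb). Its nearest domain was 234 kb upstream, 3.00 kb wide, in the protein-coding gene Gm38821, and the next on the other side was 862 kb downstream, 8.40 kb wide, over the pseudogene Gm8129. Cbx5, the gene of HP1alpha, lies on chromosome 15 (103191546 to 103239904, minus strand, 48.4 kb). Its nearest domain was 401 kb upstream, and the next on the other side, in the keratin gene Krt78, was 1195 kb downstream. Of the 18479 protein-coding genes without a domain, 88.0% lay nearer to one than Cbx3 and 95.9% nearer than Cbx5.

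The nearest domain of Cbx5 was also among the widest of the list. It was 19.05 kb wide, with 99.0% of all domains narrower, and 4.65 kb beyond it stood another of 49.95 kb, with 99.8% narrower. Neither touched an annotated gene. Because of this pair, 6.58% of the window from 500 kb before to 500 kb after Cbx5 lay in domains although the window held 2 of them. For Cbx3 the same window held 1 domain and 0.296% of its length.

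Both genes stand head to head with a gene of an RNA-binding hnRNP protein. The body of Hnrnpa2b1 is 0.105 kb from that of Cbx3 and the body of Hnrnpa1 is 0.038 kb from that of Cbx5, and neither had a domain.

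Trim28, the gene of KAP1, had no domain in its body but lay in the neighbourhood with the most domains of the 9. It occupies 6.88 kb on chromosome 7 (13024152 to 13031032, plus strand). The nearest domains were 33.8 kb downstream (0.900 kb wide, touching no gene) and 187 kb upstream (1.80 kb wide, in the zinc finger gene Zfp110). Within 500 kb of the body were 22 domains, 9 before the gene and 13 after it, of 0.900 to 10.5 kb with a median of 4.28 kb. They covered 8.80% of the window, and 91.7% of protein-coding genes had fewer domains in such a window.

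The window around Trim28 holds vomeronasal receptor genes and zinc finger genes, the family whose KRAB members recruit KAP1. Of 9 zinc finger genes taken by symbol, 1 met a domain, Zfp110. Of 9 vomeronasal genes 3 did, namely Vmn2r53, Vmn2r55 and Vmn2r56. The other protein-coding genes with a domain were Lig1, a DNA ligase gene, and Pla2g4c, a phospholipase gene, which met the same one. In all, 6 of the 31 protein-coding genes in the window, Trim28 included, met a domain, beside 14.1% of all protein-coding genes. Of the 22 domains, 12 touched no annotated gene, a count without a share over all domains beside it.

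**Figure D2:**
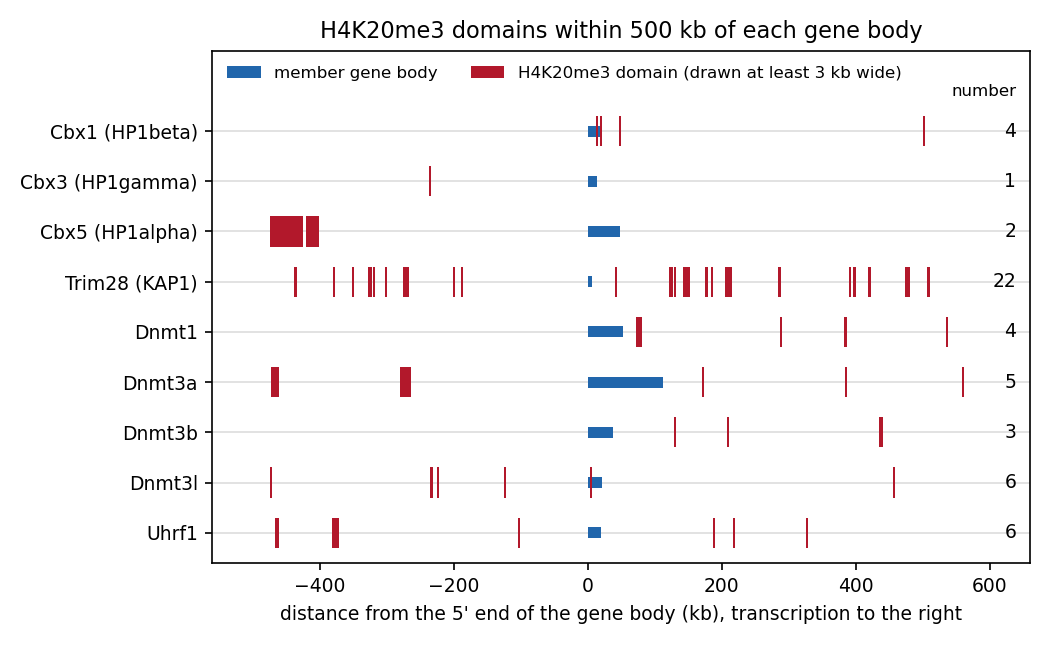
H4K20me3 domains (red, drawn at least 3 kb wide) within 500 kb of each gene body (blue), against the distance in kb from the 5′ end of the body with transcription to the right. The number at the right of each row counts the domains: Trim28 has 22, and the other 8 genes have 1 to 6.

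None of the genes of catalytically active DNA methyltransferases had a domain. Dnmt1, which maintains methylation, lies on chromosome 9 (20907206 to 20959888, minus strand, 52.7 kb). A domain of 8.55 kb in Angptl6 stood 19.4 kb beyond its 3′ end, the shortest distance among the 7 genes without a domain, and the next upstream was 560 kb away. The neighbouring gene past the 3′ end, Eif3g, encodes a translation initiation factor and had no domain.

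Dnmt3a lies on chromosome 12 (3801559 to 3914443, plus strand). It is the longest of the 9 genes at 113 kb, and its nearest domain, 2.70 kb wide in Efr3b, was 57.7 kb downstream. Upstream, a domain of 16.35 kb over the ribosomal pseudogene Rps7-ps2 stood 263 kb away. Dnmt3aos and Gm31623, noncoding genes within the Dnmt3a body, had none.

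Dnmt3b lies on chromosome 2 (153649411 to 153687730, plus strand, 38.3 kb). Its nearest domain was 90.2 kb downstream, 0.450 kb wide, in Efcab8, and the next was 547 kb upstream. Uhrf1, whose product recognises hemimethylated DNA, lies on chromosome 17 (56303337 to 56323486, plus strand, 20.1 kb). A domain of 0.300 kb in Dpp9 stood 103 kb upstream of it and one of 1.65 kb stood 167 kb downstream. The neighbouring gene Kdm4b, which encodes a histone demethylase, had none.

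In order of distance, the 7 genes without a domain were Dnmt1, Trim28, Dnmt3a, Dnmt3b, Uhrf1, Cbx3 and Cbx5, with a median of 90.2 kb. The median over protein-coding genes without a domain was 53.0 kb, with quartiles of 18.0 and 134 kb. Dnmt1 and Trim28 lay nearer than that median, and the other 5 lay farther. The distances have no error, since they come from 1 list.

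The count of genes with a domain was 2 of 9 (22.2%), beside 14.1% of all protein-coding genes. A difference of this size in 9 genes is less than 1 gene's worth, so the count does not set the 9 apart. Together the 9 bodies span 334 kb, of which 2.40 kb (0.718%) lay in domains, beside 1.89% of the summed length of all protein-coding bodies. Overlap depends strongly on gene length, from 2.93% in the lowest decile of body length to 57.7% in the highest. Among genes within 20% of its length, 8.25% of 2449 met a domain for Cbx1 and 8.82% of 2437 for Dnmt3l. The share for the genes without a domain ranged from 2.79% for the length of Trim28 to 31.3% for that of Dnmt3a. Summed over the 9 genes, these shares come to 1.17 genes.

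**Figure D3:**
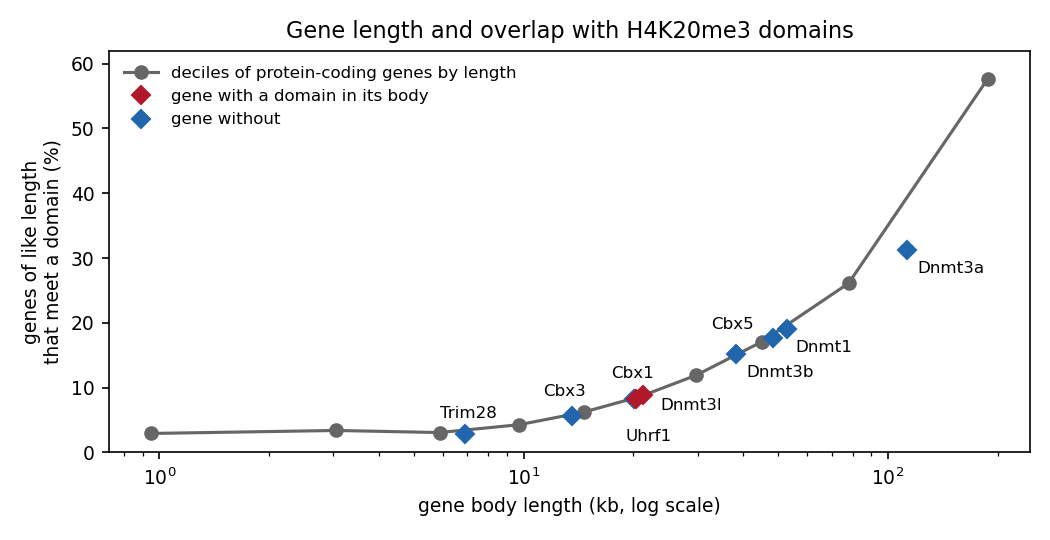
Share of protein-coding genes that meet a domain, in percent, against gene body length in kb on a log scale, for length deciles of all protein-coding genes (grey) and for genes within 20% of the length of each of the 9 genes (diamonds). Cbx1 and Dnmt3l, with a domain, sit at 8.25 and 8.82%, and Dnmt3a, without one, sits at 31.3%.

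Within 500 kb, 8 of the 9 genes had fewer domains than the median protein-coding gene, a pattern that did not hold within 1000 kb. Within 500 kb of the body there was 1 domain for Cbx3, 2 for Cbx5, 3 for Dnmt3b, 4 each for Cbx1 and Dnmt1, 5 for Dnmt3a, 6 each for Dnmt3l and Uhrf1 and 22 for Trim28. The median over all protein-coding genes was 8, with quartiles of 4 and 13, and Trim28 stood above the upper quartile. Within 1000 kb the median was 16, and 4 of the 9 genes stood below it, namely Cbx1, Cbx3, Cbx5 and Dnmt3b. Dnmt1 stood at that median, and Dnmt3a and Dnmt3l (17 domains each), Uhrf1 (21) and Trim28 (46) stood above it. Around Cbx1, 0.338% of the window of 500 kb either side was covered and 6.77% of protein-coding genes had a lower share. Around Dnmt3a the share covered in the same window was 3.23%, beside a median of 2.75%.

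**Figure D4:**
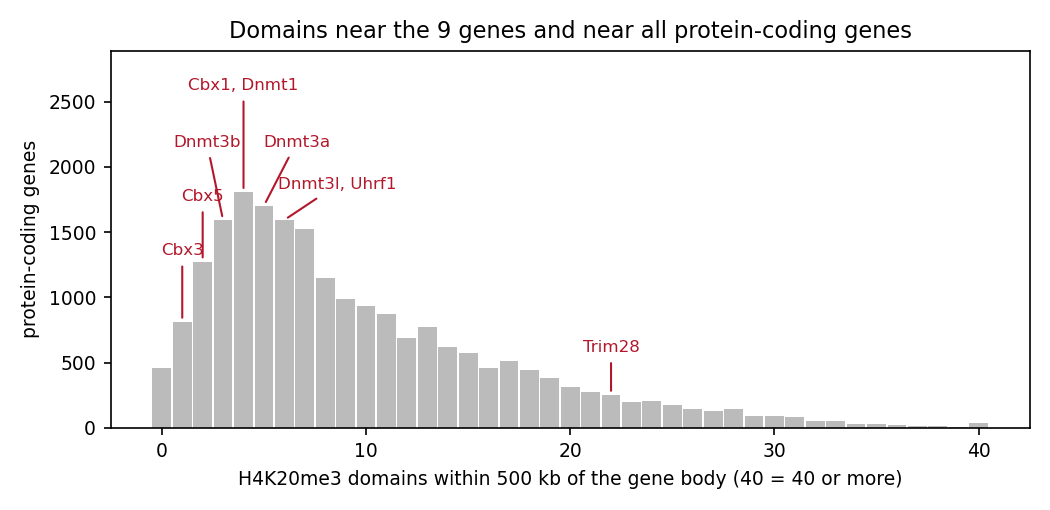
Number of protein-coding genes (bars) by the number of H4K20me3 domains within 500 kb of the body, with the 9 genes marked. Trim28 stands at 22, and the other 8 genes stand at 1 to 6, below the median of 8.

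No listed promoter window of the 9 genes met a domain. The annotated bodies of Cbx1, Cbx3 and Dnmt3a begin before their first window, so the 5′ ends of these bodies lie outside the windows. RefSeq start sites of these genes gave 18 promoter windows of 300 bases, from 250 before to 50 after the start. Their distance to the nearest domain ran from 3.09 kb at the second Dnmt3l start site to 425 kb at the second Cbx5 start site, with a median of 91.7 kb. Over all 21045 promoter windows of protein-coding genes, 1.38% met a domain, so finding none in 18 says little.

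The windows differed in CpG content, counted as the letters CG, which read the same on both strands and which 95.5% of all windows hold at least once. A window was called CpG-rich at a GC content of at least 50% and a CpG frequency of at least 0.6 of that expected from its C and G content. By that rule 10 of the 18 were CpG-rich, with at least 1 in each gene but Dnmt3l. Dnmt3a had the most, with 46 and 47 CpG at its first and second start site, where 97.9 and 98.1% of all windows had fewer. Cbx1 had 22 CpG in its window. The 3 windows of Dnmt3l had 6, 4 and 3 CpG and were the 3 nearest to a domain. The first Dnmt1 window had 2 CpG, the fewest of the 18, and lay 72.0 kb from a domain. Over all windows, 0.833% of 9600 CpG-rich ones met a domain and 1.84% of the other 11445 did. These windows come from the 17274 protein-coding genes with a listed start site, so genes without one are missing from the shares. Start sites of 1 gene share their surroundings, so the 18 windows are not independent.

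**Figure D5:**
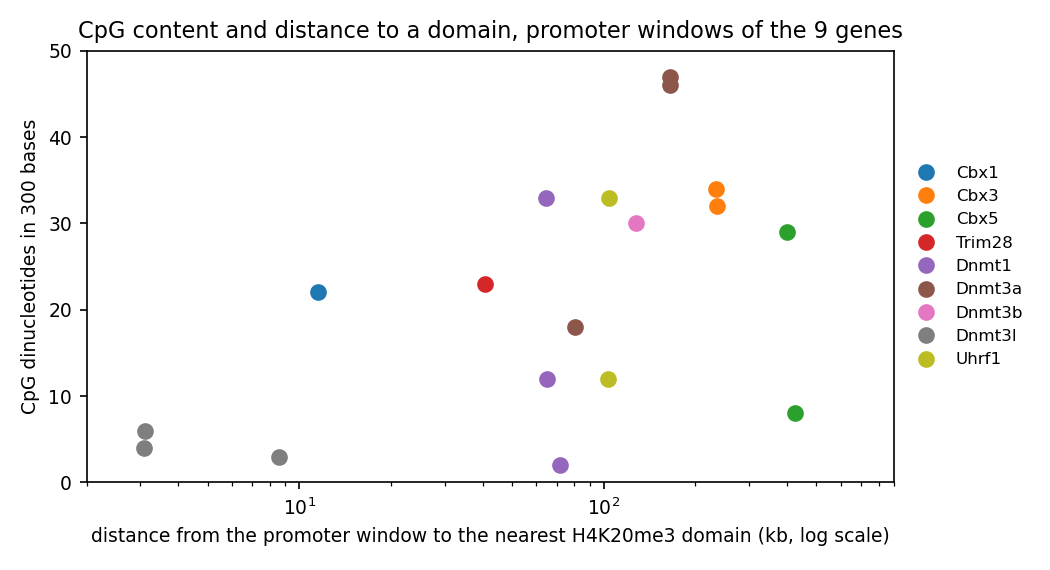
CpG dinucleotides per promoter window of 300 bases against the distance in kb (log scale) from the window to the nearest H4K20me3 domain, for the 18 listed start sites of the 9 genes. The 3 Dnmt3l windows lie within 8.58 kb of a domain and hold 3 to 6 CpG, and no window is at 0 kb.

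Annotated pseudogene copies of the 9 genes gave 2 that lay wholly inside a domain. RefSeq names 9 such copies, 6 of Cbx3 and 1 each of Dnmt3a, Dnmt3b and Dnmt3l. Cbx3-ps7 on chromosome 1 (58646593 to 58648317, 1.73 kb) was enclosed by a domain of 14.1 kb. Dnmt3a-ps1 on chromosome 3 (77560814 to 77563942, 3.13 kb) was enclosed by one of 4.05 kb that ran from 77560201 to 77564250 and so exceeded the copy by less than 1 kb. The parent genes Cbx3 and Dnmt3a had no domain. Among all 10409 annotated pseudogenes, 9.58% met a domain and 4.17% lay wholly inside one, beside 0.344% of protein-coding genes.

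The other 7 copies had no domain. Cbx3-ps4, on chromosome 13, was 1.94 kb from a domain of 4.20 kb and had 41 domains within 500 kb, and the other 6 were 15.3 to 91.2 kb from one. Dnmt3b-ps1, which lies beside Dnmt3b and carries Dnmt3c as another name, was 47.9 kb from its nearest domain, the one in Efcab8 that is also nearest to Dnmt3b. Copies can share sequence with their parents, and the handling of reads that match several places is not stated, so positions in copies are uncertain.

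Other genes of heterochromatin and DNA methylation gave 5 of 49 with a domain (10.2%, beside 14.1% of all protein-coding genes). Among H3K9 methyltransferase genes Suv39h1 and Setdb1, 2 of 6, had domains over 41.9 and 18.7% of their bodies, against 6.65% for Cbx1. Both genes are altered in this line by its genotype, Suv39h1fl/fl and Setdb1fl/fl. Whether this bears on their domains was not tested. Among relatives of KAP1, 1 of 3 had a domain, Trim24, with 5.10 kb covered (5.22%), while Trim66 stood 0.300 kb from one. Among methyl-CpG binders 1 of 7 did, Mbd1, with 0.246 kb (1.63%). Among genes of germ cell DNA methylation 1 of 4 did, Morc1, with 3 domains over 9.00 kb (4.51%). These 4 include Dnmt3c, the entry Dnmt3b-ps1 above, which RefSeq lists as a pseudogene. The 49 genes are thus not all annotated as protein-coding.

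No gene met a domain in the other 5 groups, which were the H4K20 methyltransferases (0 of 3), KAP1 and HUSH partners (0 of 7), the Polycomb-type chromobox genes (0 of 4), histone chaperones and remodellers (0 of 7) and regulators of demethylation and maintenance (0 of 8). Of the 7 KAP1 and HUSH partners, 4 were within 3.22 kb of a domain, a distance set after the values were seen. For scale, 20.6% of all protein-coding genes met a domain with bodies extended by 5 kb. The 7 partners are 26.3 to 93.6 kb long, longer than the median protein-coding gene. In the length deciles that hold such genes, 11.9 to 26.1% met a domain without any extension. A share for extended bodies of like length was not computed. Atf7ip, which encodes a stabilising partner of SETDB1, was 0.188 kb from one, Morc2a 1.04 kb, Resf1 1.81 kb and Morc3 3.22 kb. The other 3 were farther, Tasor at 32.9 kb, Mphosph8 at 135 kb and Pphln1 at 172 kb. The chromobox genes Cbx2 and Cbx8 on chromosome 11 were 635 and 648 kb from one, farther than any of the 9 genes.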

How the data were processed

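The deposited file is 1 list of H4K20me3 domains without a header, holding chromosome, start and end. Its values are positions in bases, with no signal, score or sample name. Per the file name, the authors called them with RSEG, which segments the genome for diffuse histone marks. Neither its version and threshold nor the libraries and times behind the calls are stated. The submitters' processing notes name deepTools, bedtools, SAMtools 1.1 and Bowtie2 2.3.4.1, and the builds GRCm38, mm10, mm9 and dm6, without a role for each. The build of the domain positions is thus not stated. They were read as GRCm38, and the overlaps and distances hold only if that reading is right. Apart from 1 domain, edges lie on a grid of 150 bases, and neighbours are at least 750 bases apart, which limits the precision of each position.

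Starts were converted to count from 1. Gene bodies came from a RefSeq table of GRCm38.p6 (mm10), and promoter sequences and strands from a second RefSeq table of that build. Of 49997 genes, 49214 on chromosomes 1 to 19 and X with a start past 3 Mb were used. The tables hold no exons, so exon and intron were not told apart. A gene counted when at least 1 base lay in a domain. Distances run from body edge to domain edge. Each of the 9 genes was set beside all protein-coding genes and beside those within 20% of its length. All 9 genes are named, with their nearest domains and neighbours, related genes that meet a domain, and annotated copies. Other named genes were chosen after their values were seen. One gene of the planned related lists was left out of all counts and is not reported here. The 9 genes and the related lists were chosen with earlier results of these data known. The planned use of values per sample was not possible, since the file holds none. Depth is unknown here. The interval code was tested on simulated data. Alternatives were merged or wider domains, extended bodies, stricter overlap and other windows. Python 3.11.15, numpy 2.4.6, pandas 2.3.3 and matplotlib 3.10.9 were used.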

Additional observations from a re-analysis of the deposited data

How the results depend on the processing

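Cbx1 and Dnmt3l were the 2 genes with a domain as reported, with domains closer than 5 kb merged, with domains of at least 1 kb, with bodies extended by 1, 5 or 10 kb, and with at least 500 bases shared. The count was 0 with domains of median width or more and 0 when at least 10% of the body had to be covered. Covered bases in the 9 bodies, 2400 as reported, were 7200 with merging, since the gap between the Cbx1 domains was then filled, 0 with domains of median width or more and 2100 with domains of at least 1 kb. The median distance to a domain, 57.7 kb as reported, was 263 kb with domains of median width or more, 115 kb with those of at least 1 kb, and 56.7, 52.7 and 47.7 kb with bodies extended by 1, 5 and 10 kb. Protein-coding genes with a domain, 3044 as reported (14.1%), numbered 1813 (8.42%) with domains of median width or more and 842 (3.91%) at 10% of the body. They numbered 4439 (20.6%) with bodies extended by 5 kb and 5898 (27.4%) with bodies extended by 10 kb. With the 10 kb extension, the 2 of 9 genes (22.2%) thus stood below the share of all protein-coding genes. Related genes with a domain, 5 of 49 as reported, numbered 11 and 16 with 5 and 10 kb extensions and 2 at 10% of the body. Windows of 200 and 1000 kb, chosen after seeing the data, left Trim28 with the most domains of the 9, 9 and 46. Genes below the median of protein-coding genes, 8 of 9 at 500 kb, numbered 6 at 200 kb, with Cbx1 and Uhrf1 at the median, and 4 at 1000 kb. No paired analysis was possible because the list holds no value per sample, and no replicate could be left out for the same reason.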

Other observations

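Each of the 3 HP1 genes bordered or lay in a long domain-free interval that also held a Hox cluster, the clustered homeobox genes of body patterning. These intervals were picked out after their values were seen. Around Cbx5 the interval ran for 1645 kb and held 9 Hoxc genes, the nearest 155 kb from Cbx5, together with Hnrnpa1 and Nfe2. Around Cbx3 it ran for 1110 kb and held 11 Hoxa genes, the nearest 672 kb away, with Nfe2l3, Hnrnpa2b1 and Snx10. Before the first Cbx1 domain it ran for 937 kb and held 10 Hoxb genes, the nearest 420 kb away, with Snx11, while Nfe2l1 stood on the other side of the Cbx1 domains. Long intervals were not particular to the HP1 genes. Without a Hox gene, they ran for 676 kb around Dnmt3b, 632 kb around Dnmt1 and 434 kb around Dnmt3a. Before and after the Dnmt3l domain they ran for 127 and 452 kb, and around Uhrf1 and Trim28 for 290 and 228 kb, also without a Hox gene. The median interval between neighbouring domains was 39.1 kb, and that around protein-coding genes without a domain was 319 kb. The intervals of Cbx3 and Cbx5, but not that of Cbx1, were among the 68 of 28157 (0.242%) that reached 1000 kb, in which 6.99% of protein-coding genes lay. None of the 39 Hox genes, those of the cluster not beside an HP1 gene included, met a domain. Of all protein-coding genes 14.1% did, and 2.93% of those in the lowest decile of body length. Hox genes of 1 cluster share their surroundings, so the 39 are not independent, and their lengths were not compared.

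The domains in or next to the 9 genes included several of the narrowest in the list. Of 21 such domains, 3 in bodies and 18 flanking them, 4 were no wider than 0.450 kb, a width chosen after seeing the data. They were the second Cbx1 domain, the one past Cbx1, the one in Efcab8 nearest to Dnmt3b and the one in Dpp9 nearest to Uhrf1. Of all domains, 1.25% were that narrow, and so were 2.78% of the domains in or next to protein-coding genes when each gene is counted with its own domains.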
